A study of Mus musculus with 30 samples.

Results

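The hippocampus of COX-2-/- mice was compared with that of the wild-type mice of the same line on 6 nylon membrane arrays, 3 for each genotype, out of 30 arrays in the series. The comparison was defined by region and genotype alone, so no measured value chose its members, and all 16896 probes of the array entered it. All mice were 12 weeks old, of a C57BL6/6-129/Ola mixed background, untreated and fed freely. COX-2-/- mice lacked the gene in every tissue throughout life, and were bred from null males and heterozygous females, whereas the wild-type mice came from wild-type parents taken from the same colony. The genotypes therefore came from separate matings. Values for 3 heterozygous (COX-2 Hetero) hippocampus arrays are given beside them, and those for COX-2-/- cortex and COX-1-/- hippocampus, each with its own 3 wild-type arrays, are used for comparison. The labels number 3 arrays per group, and the methods speak both of 3 mice per group and of triplicate hybridisation, so the p-values measure the spread between these arrays, part of which may be technical.

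Cyclooxygenase-2, encoded by Ptgs2, turns arachidonic acid released from membrane phospholipid into prostaglandin H2, from which prostaglandin E2 and the other prostanoids are made. In the brain it is present without any insult, mainly in excitatory neurons of the hippocampus and cortex, and is induced further by synaptic activity and by inflammation. Prostaglandin E2 acts through G protein coupled receptors, some of which raise cyclic AMP. No probe on the array carried the symbol of Ptgs2 or Ptgs1, so the deleted gene itself was not analysed here.

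Each value was a Z score, the log intensity of a spot expressed in SDs from the mean of its array, and the null effect was the difference between the 2 group means (COX-2-/- minus wild type). A probe was counted as above background where the mean Z score of the 6 arrays exceeded 0, which 8040 probes did. The z ratio divided a probe's difference by the SD of the differences of all probes, which was 0.105, and the study's rule, taken in this form, called a probe with a z ratio beyond 1.5 in either direction and a Z test P below 0.05. The rule called 329 probes (4.09% of those above background), 166 of them higher (2.06%) and 163 lower (2.03%) in COX-2-/- mice. The differences of the called probes ran from -0.327 to 0.464, with a median size of 0.182 Z score units. As printed in the methods, the ratio is divided by the SD of an array, which is 1 for Z scores, and with that divisor 0 probes would be called. A Z score difference cannot be turned into a fold change, because the spread of the log intensities on each array was not used here. By limma over the 15 hippocampus arrays, 0 probes (0%) passed an adjusted p of 0.05, the smallest being 0.295, while 985 (12.3%) had an unadjusted p below 0.05, 501 of them higher in COX-2-/- mice (6.23%). Without COX-2-/- replicate 1, limma called 57 probes, 50 of them higher in COX-2-/- mice, whereas leaving out any of the other 5 arrays left the count at 0. The rule called 220 probes without COX-2-/- replicate 3, of which 129 were among the 329, and 396 without COX-2-/- replicate 1.

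**Figure D1:**
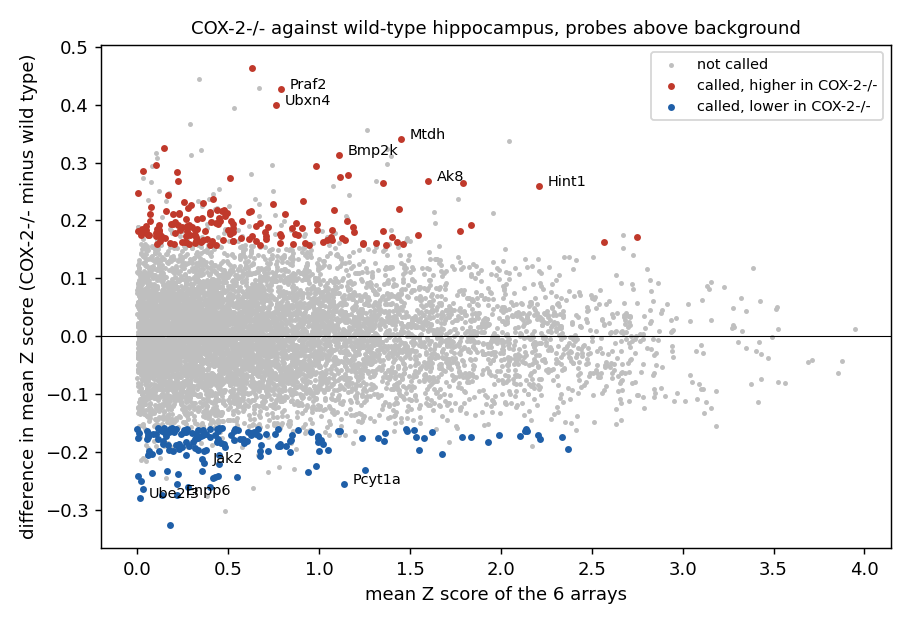
Difference in mean Z score (COX-2-/- minus wild type, y axis) against the mean Z score of the 6 hippocampus arrays (x axis) for the 8040 probes above background, with called probes in red (higher) and blue (lower). The 329 calls had a median mean Z score of 0.442, and 146 of them were among the 4567 probes with a mean above 0.5. The 10 genes named include Praf2 at 0.427 and Ube2l3 at -0.279.

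Among probes with 1 gene symbol, 181 genes of 3890 above background were called (4.65%), 90 higher (2.31%) and 91 lower (2.34%). Values of the null and wild-type arrays did not overlap for 1376 probes above background (17.1%), 664 of them higher in COX-2-/- mice (8.26%), and for 285 of the 329 called. The 6 arrays correlated with one another at r of 0.983 to 0.991 over all probes, and COX-2-/- replicate 3 had the lowest mean correlation with the other COX-2 line hippocampus arrays, 0.984. Few cell type markers were on the array. The neuronal marker Snap25 had 1 probe, not called, at 0.211, 0.332 and 0.279 in wild type and 0.315, 0.0905 and -0.0284 in COX-2-/- mice, a difference of -0.148, and no interneuron marker had any. The sole oligodendrocyte marker, Enpp6, was called lower, at -0.274. The astrocyte markers Gja1, Aldoc and Slc1a3, the microglial C1qb and C1qc, and the endothelial Pecam1 were above background, none was called, and their differences lay between -0.103 and 0.0604. The markers fixed for hippocampal subfields were represented above background by Calb1 alone, whose 2 probes had z ratios of 2.54 and 0.864 without a call, and no measured marker of cortex, thalamus or striatum was above background, so the dissection could not be checked further. Of 8 probes for meningeal genes 7 were lower in COX-2-/- mice and 0 were called, with differences from -0.0654 to 0.00621. The part of these markers in other genes' differences was not tested. Of 14 probes for blood genes above background 1 was called, a lower probe of Hba-a1, which encodes alpha globin. The choroid plexus gene Ttr, which encodes transthyretin, stood at 2.36, 1.97 and 0.402 on the wild-type arrays and at 2.01, 2.17 and 0.247 on the COX-2-/- arrays. Its low values came from replicate 3 of each genotype and not from 1 genotype. In tissue of many cell types, fewer cells of a type and less RNA per cell cannot be told apart.

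A probe's difference went with its place in the table. The table consists of 2 parts of 8448 rows; 287 of the 3907 probes tested in the first part were called (7.35%) against 42 of 4133 in the second (1.02%), and the SD of the differences was 0.118 and 0.0900. Across neighbouring rows the differences correlated at r = 0.653 in the first part and 0.370 in the second, a description over rows that share arrays. Adjacent rows never carried the same gene symbol, in 5662 pairs with a symbol on each side. Of the 329 called probes, 251 (76.3%) had another call in the same direction within 10 rows, 0 had one in the opposite direction, and for 264 the median of the 20 neighbouring rows was over 50% of the probe's own difference. The genes with the highest and lowest z ratios are therefore given with a z ratio recomputed after that neighbour median was subtracted, an alternative chosen after seeing the data. The recomputed ratio was divided by the SD of all differences after subtraction, 0.0749, in place of 0.105. A probe's ratio can therefore rise although its difference became smaller, and the ratios before and after subtraction are on different scales. After the subtraction the rule called 117 probes (1.46%), 62 higher and 55 lower, of which 23 were among the 329. The part that position plays in any one gene's difference was not tested.

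**Figure D2:**
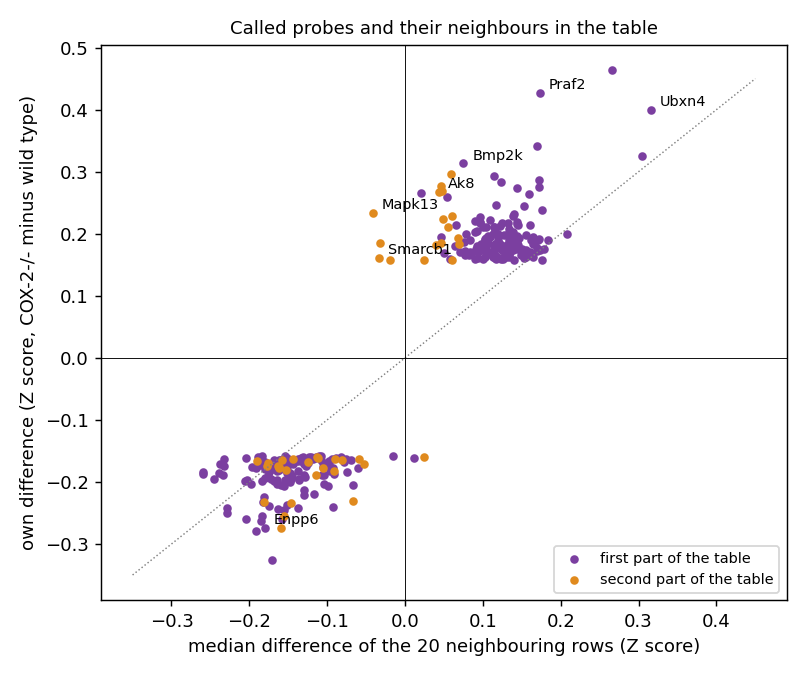
Own difference in mean Z score (y axis) of the 329 called probes against the median difference of the 20 rows around each (x axis), coloured by part of the table, with the dotted line marking equality. For 323 of the 329 the neighbours lay on the same side of 0, and Mapk13 and Smarcb1 were among the few that did not.

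Of the genes higher in COX-2-/- hippocampus, the kinase gene Bmp2k and the adenylate kinase gene Ak8 met the rule under all 14 alternatives applied to the named probes. They were the only ones of 74 named probes to do so. However, 1 of the 14, a mean Z score above 0.5, removes any probe of lower signal whatever its difference, and 49 of the 74 were lost there. The z ratio limit of 2, limma's p and the adjusted Z test P were not among the 14. Bmp2k belongs with Aak1 to a kinase family that acts on clathrin adaptors. It read 0.871, 0.909 and 1.07 on the wild-type arrays and 1.15, 1.23 and 1.40 on the COX-2-/- arrays. The groups were fully apart, with a difference of 0.314 ± 0.0656 (SE) and a z ratio of 2.99. The ratio was 3.19, on the smaller divisor, after its neighbours' median of 0.0747 was subtracted. Another Bmp2k probe lay below background and had a ratio of -1.65. Ak8, which interconverts adenine nucleotides and is best known from motile cilia, read 1.47, 1.47 and 1.45 in wild type. In COX-2-/- mice it read 1.59, 1.80 and 1.80, a difference of 0.267 ± 0.0648 (SE). Its z ratio was 2.55. With the neighbours' 0.0434 removed the difference was smaller, and the ratio was 2.99 on the smaller divisor.

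Ddx27, Mapk13 and Psma3 each lost the call under 1 of the 14 alternatives. Ddx27, a DEAD-box helicase of ribosomal RNA processing, had closely grouped arrays, at 0.0971, 0.0851 and 0.0539 in wild type and 0.371, 0.377 and 0.339 in COX-2-/- mice. Its z ratio was 2.71, or 2.14 against its neighbours, and it lost the call only under the higher background limit of a mean Z score above 0.5. Mapk13, the p38 delta kinase, read 0.777, 0.927 and 0.682 in wild type and 0.976, 1.11 and 0.999 in COX-2-/- mice, again with no overlap. Its neighbours moved the other way, by -0.0416. Its z ratio went from 2.23 to 3.67 when they were subtracted, in part through the smaller divisor. Without wild-type replicate 1 the call was lost. Psma3, a subunit of the proteasome core, had a z ratio of 2.06 that came to 0.962 beside its neighbours' median of 0.144, and its other probe above background had -0.346.

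Among called genes with 1 symbol whose groups did not overlap, the largest z ratios belonged to Praf2, Ubxn4 and Mtdh, 3 genes whose products sit in or at the endoplasmic reticulum. Praf2, a prenylated Rab acceptor family protein, read 0.606, 0.632 and 0.487 in wild type and 0.680, 1.02 and 1.31 in COX-2-/- mice. The COX-2-/- arrays were widely spread, the z ratio was 4.07 (3.39 against neighbours at 0.173, without a call), and the call was lost without COX-2-/- replicate 2 or 3. Ubxn4, which recruits the p97 ATPase in protein degradation at that membrane, read 0.239, 0.805 and 0.645 in wild type against 0.875, 1.02 and 0.990. Its z ratio of 3.81 fell to 1.12 beside a neighbour median of 0.316, and a second probe above background had a z ratio of 0.156. Mtdh, encoding metadherin, had a z ratio of 3.26 (2.29 against its neighbours, without a call), and its second probe above background had 0.122. The Mtdh call was also lost without COX-2-/- replicate 2 or 3. Mtdh, Ceacam15 and Pcmtd2, all called higher, lay within 5 rows of each other.

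The remaining genes among the 10 highest by that ranking were Ceacam15, Galnt10, Panx1 and Hint1, with z ratios from 2.47 to 2.73. Ceacam15 is an adhesion gene of the carcinoembryonic antigen family, and Galnt10 encodes an enzyme that starts mucin-type O-glycosylation. Both kept a call after neighbour subtraction, at 1.53 and 2.95. However, Ceacam15 read -0.115, -0.135 and -0.0829 in wild type and 0.178, 0.142 and 0.205 in COX-2-/- mice. Its mean Z score of 0.0320 thus passed the background limit of 0 only through the COX-2-/- arrays. The Ceacam15 call was lost without COX-2-/- replicate 3 and with the wild types of both lines. Galnt10 read 0.114, 0.0967 and 0.0633 in wild type and 0.145, 0.449 and 0.485 in COX-2-/- mice, so COX-2-/- replicate 1 stood close to wild type. Panx1, the pannexin channel through which cells release ATP, read 1.24, 1.19 and 1.22 in wild type and 1.42, 1.34 and 1.69 in COX-2-/- mice, and its ratio of 2.53 came to 1.40 against its neighbours, without a call. The purine phosphoramidase gene Hint1 read 2.04, 2.09 and 2.11 in wild type and 2.12, 2.35 and 2.55 in COX-2-/- mice, with 2.74 against its neighbours but no call. For each of the 20 genes with the highest and lowest z ratios, limma's adjusted p was 0.295.

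Of the 10 lowest genes, none met the rule once the neighbours were subtracted, and several lay side by side in the table. Ube2l3, an E2 enzyme that passes ubiquitin to ligases, read 0.160, 0.125 and 0.172 in wild type and -0.000520, -0.169 and -0.209 in COX-2-/- mice. The groups did not overlap, with a difference of -0.279 ± 0.0886 (SE) and a z ratio of -2.66, or -1.17 against neighbours at -0.191. The call was lost without any 1 of the 3 wild-type arrays. However, the mean Z score of this probe was 0.0132, just above the background limit of 0. Each wild-type array read above that mean, so leaving out any of them lowers it and can remove the probe as background. The lost calls therefore do not show that the difference was unsteady. The other Ube2l3 probes above background had z ratios of -0.464 and -1.33.

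Pcyt1a, the enzyme that sets the pace of phosphatidylcholine synthesis, read 1.27, 1.25 and 1.27 in wild type and 1.08, 1.07 and 0.880 in COX-2-/- mice. It kept its call when each array was left out in turn, with a z ratio of -2.44, but came to -0.955 beside neighbours at -0.184. The row after it held Cdca8, which encodes a subunit of the chromosomal passenger complex of mitosis and had a z ratio of -2.51 (-1.03 against its neighbours). Enpp6, a choline-releasing phosphodiesterase of newly formed oligodendrocytes, read 0.271, 0.428 and 0.367 in wild type and 0.194, 0.134 and -0.0831 in COX-2-/- mice. It was the sole oligodendrocyte marker on the array, and its z ratio of -2.61 came to -1.25 against its neighbours. Pank3, a pantothenate kinase at the first step of coenzyme A synthesis, had a z ratio of -2.34 beside neighbours at -0.155, and the phosphodiesterase gene Gdpd1 had -2.26, or -1.14 against its own. Erlin1, a lipid raft protein of the endoplasmic reticulum, and Rasa3, a Ras GTPase activator, lay within 2 rows of each other with z ratios of -2.28 and -2.22, which were -0.851 and -0.664 against their neighbours. Prdm10, a zinc finger factor, stood at -2.48 and the ectonucleotidase gene Entpd2 at -2.39, or -0.735 and -0.276 against theirs. A second Prdm10 probe above background went the other way, with a z ratio of 0.889 and groups that did not overlap.

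**Figure D3:**
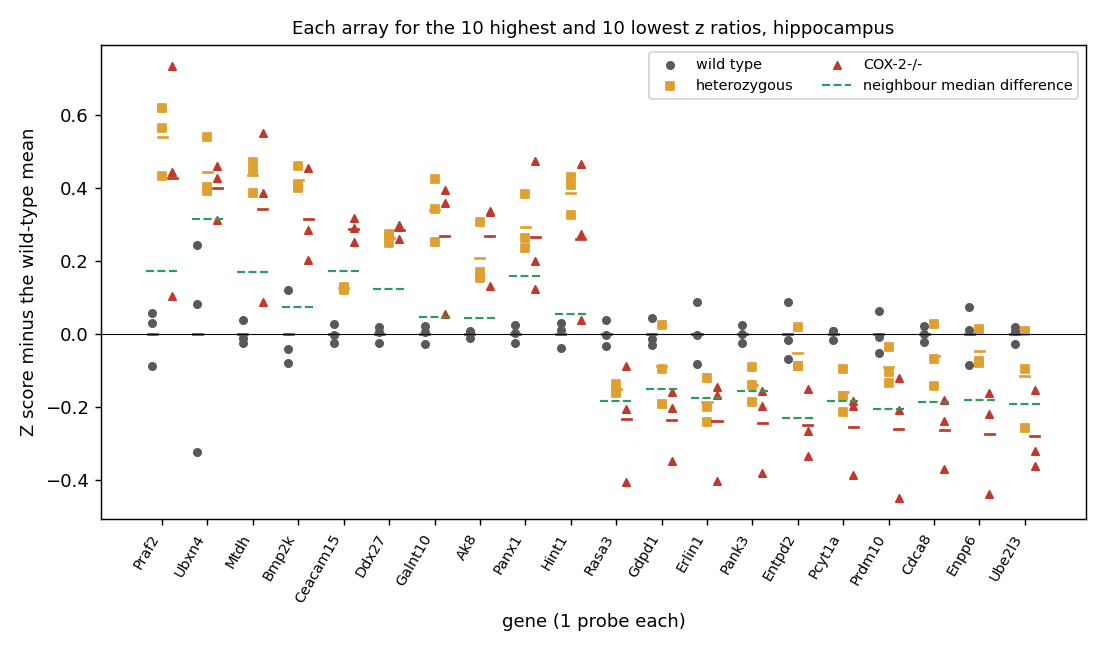
Z score of each hippocampus array minus the wild-type mean (y axis) for the 10 genes with the highest and the 10 with the lowest z ratios (x axis), with 3 wild-type (circles), 3 heterozygous (squares) and 3 COX-2-/- (triangles) arrays per gene, short bars at group means and dashed green lines at the neighbour median difference. For Bmp2k, Galnt10, Ak8 and Hint1 the neighbour line lies near 0, whereas for Ubxn4 and Entpd2 it lies close to the COX-2-/- mean.

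Gene groups are described by counts beside those of all genes, of which 4.65% were called and whose probes had a median difference of 0.00334. The lists were written with earlier calls of these data known, so their shares of calls are descriptions. In the prostanoid and arachidonate pathway, 13 genes were above background and 1 was called. Pla2g15, a lysosomal phospholipase, was higher. Its ratio of 1.66 came to 0.628 against its neighbours. The cytosolic phospholipase gene Pla2g4a had a difference of 0.0144 and the calcium-independent Pla2g6 one of -0.000138. The prostaglandin E synthases Ptges and Ptges3 differed by 0.0437 and 0.0239, the prostacyclin synthase Ptgis by 0.00593 and the prostaglandin E receptor Ptger2 by -0.0590, none of them called. Alox12, the arachidonate 12-lipoxygenase, read 0.205, 0.273 and 0.255 in wild type and 0.137, 0.526 and 0.744 in COX-2-/- mice. It was not called, and COX-2-/- replicate 1 was below every wild-type array. Without that array limma gave a difference of 0.390 with an adjusted p of 0.0461. That fit leaves 2 COX-2-/- arrays and drops the one that read against the difference. The array left out was found by trying each in turn, so the p-value is a description.

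Among 12 genes of JAK-STAT cytokine signalling above background, Jak2 was called lower and none higher. Jak2, the kinase that cytokine receptors without their own kinase domain use to phosphorylate STATs, read 0.510, 0.472 and 0.442 in wild type and 0.351, 0.218 and 0.197 in COX-2-/- mice. The groups were apart, with a difference of -0.220 ± 0.0630 (SE) and a z ratio of -2.10. The call held with each array left out, but the z ratio was -1.37 against neighbours at -0.117. A second Jak2 probe above background had a z ratio of 0.508, so the probes of the gene did not point one way. The Jak1 probe above background had 0.451. The 2 Stat3 probes above background had 1.27 and -0.329, and the 7 inhibitors above background, with Socs3 and Cish among them, had 0 calls. In NF-kappaB signalling 1 of 8 genes was called, the ubiquitin ligase gene Btrc on 1 probe of 4, at -1.67. Rela and the inhibitor Nfkbia had z ratios of -0.274 and 0.961.

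The study reports the GABA-A receptor gene Gabrb1 as lower in this comparison, by array and by Q-PCR. It had no probe with 1 gene symbol and was not analysed here, and 0 GABA-A receptor subunits were above background. Of 3 genes of GABA signalling above background, Glul, the glutamine synthetase of astrocytes, was called higher. It read 0.126, 0.0540 and -0.0375 in wild type and 0.242, 0.149 and 0.402 in COX-2-/- mice, a z ratio of 2.07 that was 1.24 against its neighbours. Among 10 activity-regulated and stress-induced genes, Myc was called higher at 1.58 and Atf2 and Gadd45g lower at -1.77 and -1.87, and all 3 were within 0.46 of 0 once their neighbours were subtracted. Jun had a z ratio of 0.161 and Btg2 one of 1.11. Of 10 synapse and excitability genes, Panx1 and the potassium channel gene Kcnh3 were higher, and the scaffold gene Sdcbp and the axonal syntaphilin gene Snph lower. Snph turned from -1.62 to 0.0900 after the neighbours were subtracted.

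In the group of phospholipid, glycolipid and coenzyme A enzymes, 4 of 29 genes were called. Cers2, a ceramide synthase of very long chains, was higher, and Enpp6, Pcyt1a and Pank3 were lower. In purine signalling 3 of 7 were called. The channel gene Panx1 was higher, and the ectonucleotidases Entpd1 and Entpd2, which degrade ATP outside the cell, were lower. Entpd1 read 0.151, 0.237 and 0.151 in wild type and 0.106, -0.0848 and -0.0903 in COX-2-/- mice. Its z ratio of -1.94 was -1.31 against its neighbours, and the call was lost without COX-2-/- replicate 2 or 3.

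Fatty acid oxidation, acetyl-CoA and methionine enzymes had the lowest median difference of the groups, -0.0658 over 18 probes, with Ahcyl1 higher and As3mt, Gss and Mthfd1 lower. In its methionine and folate subgroup 7 of the 8 probes above background were lower in COX-2-/- mice, with a median of -0.128. Gss, the glutathione synthetase, read 1.05, 1.12 and 1.08 in wild type and 0.970, 0.967 and 0.782 in COX-2-/- mice. Its neighbours had a median of -0.175 against its own -0.176. The neighbours of As3mt, Bhmt, Mthfd1 and Cbs likewise had medians of -0.151, -0.125, -0.144 and -0.0941, close to the -0.161, -0.130, -0.164 and -0.0929 of the genes themselves.

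In sterol synthesis and its regulation Dhcr7, the last enzyme of cholesterol synthesis, was called higher and Erlin1 lower of 13 genes. Dhcr7 had a z ratio of 1.81 that was 0.0902 against its neighbours.

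Genes of protein synthesis and turnover were called in each direction. Of 62 cytosolic ribosomal protein genes, Rpl17 and Rpl32 were higher and Rpl23a and Rps15 lower, and of 25 mitochondrial ones Mrpl32 was higher. Of 28 proteasome genes Psma3 was higher, and of 26 chaperone genes Tcp1, a chaperonin subunit, was higher and Pfdn6, a prefoldin subunit, lower. Of 64 ubiquitin conjugation genes Fbxw17 was higher, and Ube2l3, Btrc, Fbxl5 and Rnf20 were lower. Vesicle traffic genes had 7 calls of 50. Bmp2k, Praf2, Ehd1 and the coat GTPase Sar1a were higher, and Aak1, Rab8a and Vps45 were lower. Bmp2k and Aak1, relatives in sequence and function, thus had z ratios of 2.99 and -1.63, and the second of these was -0.543 beside its neighbours.

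Among transcription and chromatin regulators 9 of 29 genes were called, and among RNA binding and splicing genes 7 of 24. Smarcb1, a core subunit of the SWI/SNF remodelling complex, was higher together with Ash2l, Hira and Med15. Smarcb1 had a mean of 1.23 in wild type and 1.39 in COX-2-/- mice, whose replicate 1, at 1.24, lay within the wild-type range. Its neighbours went the other way, by -0.0338. Its z ratio rose from 1.54 to 2.61 when they were subtracted, in part through the smaller divisor. A second Smarcb1 probe above background had -0.231. Baz1b, H3f3b, Ncoa6, Thap11 and Trip4 were lower. Thap11 read 0.216, 0.129 and 0.151 in wild type and 0.0143, -0.0711 and -0.0573 in COX-2-/- mice. Its z ratio was -1.94, and -0.511 against its neighbours. H3f3b and Trip4 turned from -1.66 and -1.81 to 0.179 and 0.601.

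Among RNA binding and splicing genes Ddx27, Snrpg, Rbms1 and Syncrip were higher and Ddx3x, Srpk1 and Srsf3 lower. The called Ddx3x probe had a z ratio of -1.78, or -0.519 against its neighbours, and its other probe above background had 0.986. Snrpg, a core protein of the spliceosomal small nuclear ribonucleoproteins, had a z ratio of 2.13, and 2.34 against its neighbours. Rbms1 was the only gene called on more than 1 probe, at 2.09 and 1.81, and its other probe above background had 0.331. Across all genes with several probes above background, the differences of 903 probe pairs correlated at r = 0.0960, a description over probes of the same arrays. Of the 78 pairs with a call, 40 (51.3%) had the same sign on both probes, against 51.8% of all pairs.

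**Figure D4:**
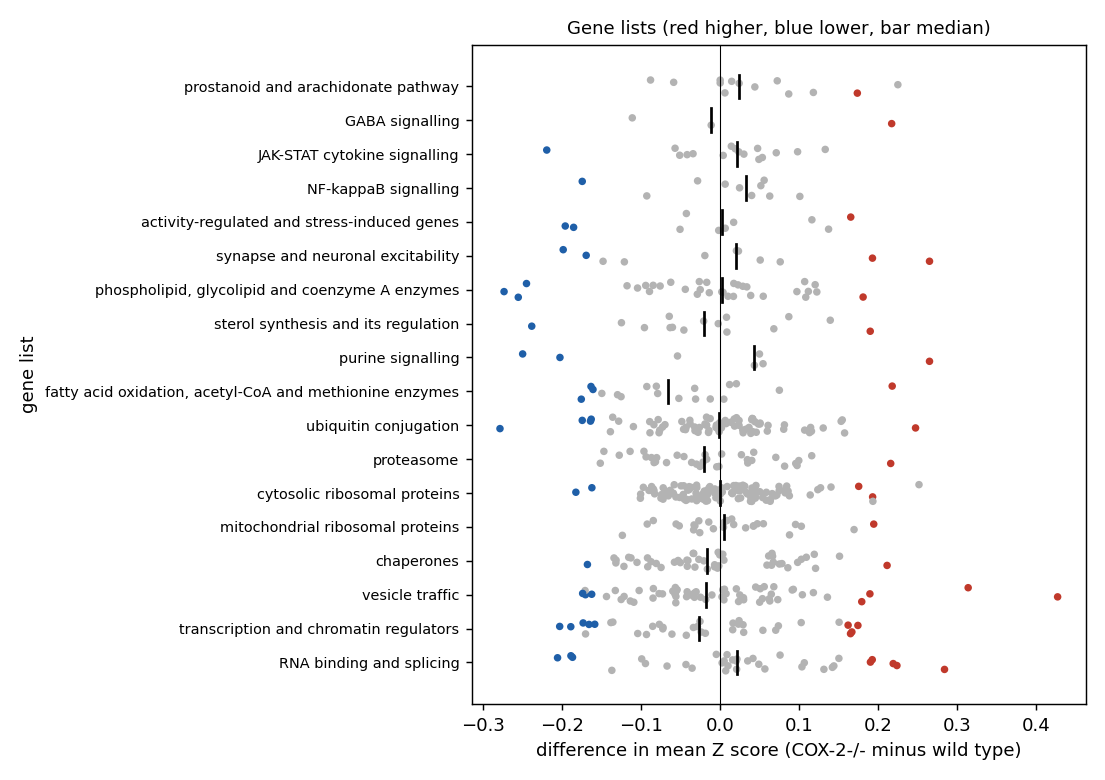
Difference in mean Z score (COX-2-/- minus wild type, x axis) of every probe above background in each of 18 gene lists (y axis), with probes called higher in red, called lower in blue, others in grey, and a black bar at the list's median. Most medians lie within 0.05 of 0, and the list with methionine enzymes is lowest at -0.0658.

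Heterozygous hippocampus did not take an intermediate level at every called probe. Its mean lay between wild type and COX-2-/- for 218 of the 329 probes, 91 of those higher and 127 of those lower in COX-2-/- mice. It lay beyond the COX-2-/- mean for 65 and beyond the wild-type mean for 46. Bmp2k read 1.35, 1.36 and 1.41 in heterozygous mice, each above 2 of the 3 COX-2-/- arrays. Hint1 had a heterozygous mean of 2.47 against 2.34 in COX-2-/- mice. Mapk13 read 0.819, 0.771 and 0.584, within or below the wild-type range. Jak2 had a heterozygous mean of 0.359, between 0.255 and 0.475, and Enpp6 one of 0.309, near the wild-type 0.355. These comparisons share their wild-type or COX-2-/- arrays with the main one and were not tested.

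In cortex, where the rule called 346 probes (4.32%), COX-2-/- mice differed from wild type in the opposite direction at every probe called in both regions. There were 60 such probes, 18.2% of the hippocampus calls and 17.3% of the cortex calls, 28 of them with 1 gene symbol, and 56 lay in the first part of the table. No array was shared between the regions, but the labels do not say whether cortex and hippocampus came from the same mice. Over the 8040 probes the differences in the 2 regions correlated at r = -0.470, and at -0.270 after neighbour subtraction in each. With that subtraction 20 probes were called in both regions, again all in opposite directions. This describes probes that share arrays and rows. Bmp2k differed by 0.314 in hippocampus and -0.214 in cortex, Praf2 by 0.427 and -0.184, and Smarcb1 by 0.162 and -0.152. Pcyt1a differed by -0.256 and 0.233, Cdca8 by -0.263 and 0.282 and Psma3 by 0.216 and -0.259.

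By limma, the difference of the null effect between hippocampus and cortex passed an adjusted p of 0.05 at 0 of 8021 probes (0%), while 1404 (17.5%) had an unadjusted p below 0.05. The smallest adjusted p, 0.0832, was shared by Ceacam15, Ddx27, Psma3, Pcyt1a, Cdca8, Rc3h1 and Ctnnd1. With the spread estimated over all 30 arrays the count was 275. Ctnnd1, the p120 catenin of adherens junctions, had the largest interaction among those 7 after Cdca8, -0.525 ± 0.0930 (SE). Its z ratio in hippocampus was -1.97, or -0.681 against its neighbours, and a second Ctnnd1 probe above background went the other way, at 1.10, or 2.62 against its neighbours. The first probe lay in a run of neighbouring rows with probes of Ddx3x and Trabd, which were also lower in hippocampus and higher in cortex. The other Ddx3x probe above background had z ratios of 0.986 in hippocampus and -0.331 in cortex.

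**Figure D5:**
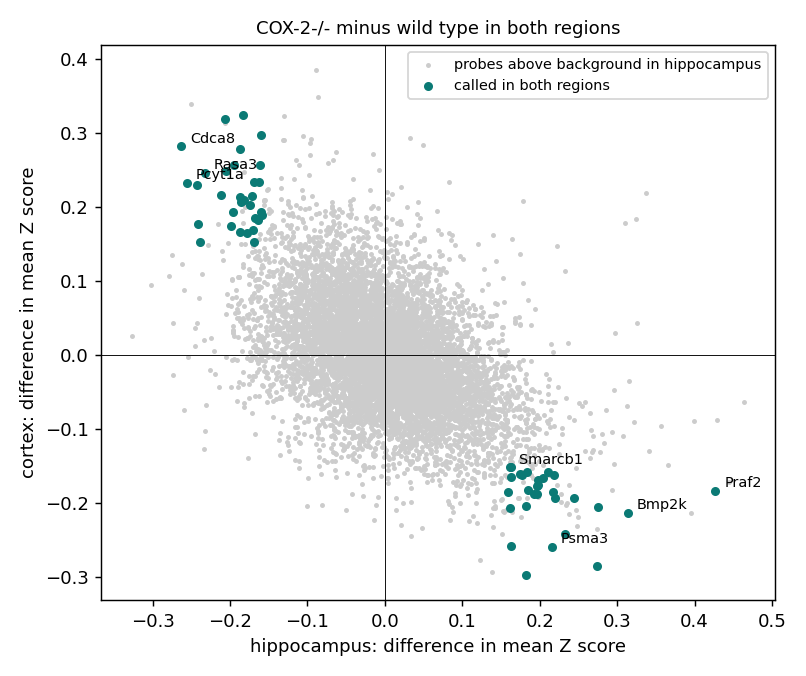
COX-2-/- minus wild-type difference in mean Z score in cortex (y axis) against that in hippocampus (x axis) for the 8040 probes above background in hippocampus, with the 60 probes called in both regions in teal. All 60 lie in the quadrants of opposite sign, among them Praf2, Bmp2k, Psma3 and Pcyt1a.

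In the hippocampus of COX-1-/- mice the rule called 387 probes (4.8%), and the difference between the lines passed limma's adjusted p of 0.05 at 0 of 8040 probes (0%), with 607 (7.55%) below 0.05 unadjusted and a smallest adjusted p of 0.607. The differences of the lines correlated at r = 0.330 over the 8040 probes, and at 0.0462 after neighbour subtraction, with no array shared. Mapk13 was called higher in each line, by 0.233 in COX-2-/- and 0.236 in COX-1-/- mice, with an interaction adjusted p of 0.998. Psma3 was higher by 0.216 and 0.365, Bmp2k by 0.314 and 0.187, and Entpd1 and Thap11 were lower in each line. Jak2 differed by -0.220 in COX-2-/- and by -0.0348 in COX-1-/- mice, a difference between lines that did not pass limma's test.

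The cyclic AMP response element is bound by CREB, to which receptors for prostaglandin E2 can signal, so the promoters of called genes were searched for it. Its full palindrome, TGACGTCA, which reads alike on both strands, was sought in the 300 bases around the RefSeq start of each gene (250 before, 50 after, mouse build GRCm38.p6). It was found in at least 1 promoter of 549 of 27025 genes with a listed promoter (2.03%). Of the 3174 such genes above background, 110 had it (3.47%). Among called genes it was found in 2 of 65 higher (3.08%) and 2 of 75 lower (2.67%), shares near those of all genes above background. To show where the element lies, the 2 genes that were higher are printed as the 250 bases before the start in the direction of the gene, with the element in capitals. Ahcyl1, an inositol trisphosphate receptor regulator related to adenosylhomocysteinase, lies on the minus strand (chr3:107696561-107696810), and Snrpg lies on the plus strand (chr6:86371290-86371539).
Ahcyl1: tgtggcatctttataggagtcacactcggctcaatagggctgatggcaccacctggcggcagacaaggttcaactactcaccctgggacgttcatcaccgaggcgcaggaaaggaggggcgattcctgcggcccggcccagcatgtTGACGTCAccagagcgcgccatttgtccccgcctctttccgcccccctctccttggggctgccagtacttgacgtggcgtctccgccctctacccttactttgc
Snrpg: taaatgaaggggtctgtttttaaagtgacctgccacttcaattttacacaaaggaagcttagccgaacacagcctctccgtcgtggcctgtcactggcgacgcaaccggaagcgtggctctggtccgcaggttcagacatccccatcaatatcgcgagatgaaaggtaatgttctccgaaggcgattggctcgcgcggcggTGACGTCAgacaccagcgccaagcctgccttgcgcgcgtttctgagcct
Counted from the start site, the element began at -104 in Ahcyl1 and at -49 in Snrpg. Ahcyl1 read 0.969, 0.947 and 0.997 in wild type and 0.978, 1.33 and 1.26 in COX-2-/- mice, so COX-2-/- replicate 1 lay within the wild-type range. Snrpg read -0.0341, -0.0402 and -0.0383 in wild type and 0.0852, 0.225 and 0.248 in COX-2-/- mice. Its mean Z score of 0.0742 thus passed the background limit of 0 only through the COX-2-/- arrays. The Snrpg call was lost under none of the alternatives that left out an array. It was lost with the wild types of both lines and with a mean Z score above 0.5.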

How the data were processed

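RNA from dissected hippocampus was labelled with 33P and hybridised to a custom nylon cDNA membrane. The deposited values are scores: for each array the authors took the log of the spot intensities and standardised them to Z scores, and no further normalization was applied here. Images were processed with ArrayPro and differential genes identified with DIANE, per the methods. Of 16896 probes, 9663 carried 1 gene symbol, 436 several and 6797 none; genes were named from the first kind only, and genes of the naming rule without such a probe were not analysed here. Calls followed the study's rule; limma 3.58.1 (R 4.3.3) was fitted to group means of the 15 hippocampus arrays, and to the 12 COX-2 arrays for the regions, with Benjamini-Hochberg adjustment over probes above background. The scripts were tested on simulated data. Genes could be named if they had the 10 highest or lowest z ratios without overlap, the 10 smallest limma p, a call within a gene list, or were named by the study. Genes under these terms not described above included Timeless and Rprd1a, called at z ratios of 1.81 and -1.69. Gltp and Map4, which the study lists as higher in this comparison, were not called. Their probes above background had 1.06 and 1.12, the Map4 probe not being the one the study lists. Members and lists were chosen with earlier results of these data known. The number of arrays limits the precision.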

Additional observations from a re-analysis of the deposited data

How the results depend on the processing

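The rule's count was 1063 with no background filter, 146 with a mean Z score above 0.5, 69 with a z ratio beyond 2, 155 with an adjusted Z test P, 107 with a running median over 201 rows subtracted (57 of them among the 329) and 117 with neighbour subtraction. It stayed between 220 and 396 when each array was left out, and within 1.5 times of 329 with median centring, quantile normalization, the SD of each part, limma's p in place of the Z test or the COX-1 line's wild types added to the control, though the last shared 124 calls. Limma called 155 probes with those wild types added, 1 over all 30 arrays (Pcmtd2, adjusted p 0.0435), 1 with neighbour subtraction (a probe without a gene name here, adjusted p 0.0141), between 0 and 57 with an array left out, and 0 otherwise, with smallest adjusted p from 0.157 to 0.556. Same-numbered wild-type and COX-2-/- arrays deviated together at r = 0.0176, 0.126 and 0.209, the last 2 above the highest for differing numbers (0.0144 and -0.0265), and since the first was near 0 the numbers were not taken as pairs. With the replicate number as a block it called 0, with 1112 below 0.05 unadjusted, and the block gave 0 for both interactions. The interaction of regions gave 275 calls over all 30 arrays and 0 under the other settings, and that of lines gave 0 throughout. Of the 74 named probes, neighbour subtraction left 8 called and turned the sign of 4, Trip4 to 0.601, H3f3b to 0.179, Vps45 to 0.0430 and Snph to 0.0900. The running median left 20 called and the added wild types 34. List genes called numbered 58, and 12 with neighbour subtraction, of which 4 were among the 58. The causes were not tested. With 3 arrays a side, an exact permutation test of 1 probe could not go below p = 0.1.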

Other observations

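The 57 probes that limma called without COX-2-/- replicate 1 held 42 with 1 gene symbol, 22 probes that met the study's rule with all arrays and 6 that were called after neighbour subtraction, and 31 of them lay in the second part of the table. They were chosen here after their values were seen. Among those with a gene symbol, the smallest adjusted p belonged to Dbpht2 (0.00243, difference 0.515), followed by Gcnt3, a mucin-type glycosyltransferase (0.00755, 0.607). Prrg4, Trib2, Arl1 and Mtdh followed at 0.0155, all higher in COX-2-/- mice. Arl1, a GTPase of the Golgi that tethers vesicles, differed by 0.390. Praf2, Bmp2k, Galnt10, Ak8, Hint1, Snrpg and Smarcb1 were among the 57, and the ribosomal protein genes Fau and Rps15a were higher while Rps15 was lower. Of the 7 probes called lower, Amotl2, an angiomotin family gene, had the largest difference, -0.430. The fit leaves 2 COX-2-/- arrays, and the array left out was chosen by trying each in turn.

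The 14 named genes that the study's rule called both with and without neighbour subtraction included Dner, a Notch ligand of neurons, with z ratios of 1.51 and 2.37. Lama5, a laminin chain of basement membranes, had -1.54 and -2.32, and the Mediator subunit gene Med10 had -1.69 and -1.56. Zfp871 had 2.17 and 1.75, and Mocs1, an enzyme of molybdenum cofactor synthesis, had 1.91 and 1.62.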
